A study of Mus musculus with 8 samples.

Results

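The TGF-beta and activin signalling genes of the mouse heart were followed here across infarction and loss of the ubiquitin ligase MAFbx. The set consisted of 10 genes taken by symbol: the ligand genes Tgfb1, Tgfb2, Tgfb3, Inhba, Inhbb and Gdf15, the receptor genes Tgfbr1 and Tgfbr2, and the binding protein genes Ltbp2 and Fstl3. Of these, 9 had a probe named for them among the 19938 genes tested, each a single probe. No probe was named for Gdf15 alone, and probes with several gene symbols were not used, so Gdf15 was not analysed here. RNA of mouse hearts was hybridised to 8 Affymetrix Mouse Gene ST arrays in 4 groups of 2. The groups were wild-type hearts after a sham operation (WT sham), MAFbx knockout hearts after a sham operation (KO sham), wild-type hearts 1 day after permanent ligation of the left coronary artery (WT MI) and knockout hearts 1 day after the same ligation (KO MI). The sources used here do not give the time after a sham operation, the age and strain of the mice, the deleted part of the gene or whether the deletion was limited to a cell type, and the titles mark WT arrays as LM without spelling it out. Nor do they say whether both arrays of a group are of different animals. The p-values therefore rest on a spread between arrays that may be technical, and precision is limited by having 2 arrays per group.

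Ligands of the TGF-beta family are secreted as dimers, and the TGF-betas leave the cell in a latent complex that latent TGF-beta binding proteins hold in the matrix until it is activated. Active TGF-beta joins the type II receptor to the type I receptor, which phosphorylates Smad2 and Smad3, while activins, dimers of inhibin beta chains, signal through their own receptors to the same Smads and are trapped by follistatin and the follistatin-like protein FSTL3. In the infarcted heart TGF-beta signalling is known for its part in calming inflammation, in fibroblast activation and in scar formation.

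All values are log2 expression levels, and a difference is a log2 fold change between group means. Fbxo32, which encodes MAFbx, read between 8.21 and 8.79 on the WT arrays and between 4.68 and 5.46 on the KO arrays. The 7 cardiomyocyte markers read between 11.8 and 13.9 on every array, against a median gene level of 5.78. The first principal component, which parted sham from MI, held 73.9% of the variance. On the second (8.56%), WT MI replicate 2 (-20.2) and KO sham replicate 1 (-21.2) were set apart from all other arrays (0.13 to 16.2), so results are also given without that pair. In the fit over all genes, 5609 genes changed after MI in WT (2457 up, 3152 down) and 4142 in KO (2098 up, 2044 down) at a limma adjusted p under 0.05. Centring each array on its median moved the share of rises among these from 43.8% to 33.6% in WT and from 50.7% to 62.3% in KO.

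One day after infarction the transcripts of 4 ligand genes, Tgfb1, Tgfb2, Inhba and Inhbb, and of the activin-binding protein Fstl3 were raised in both genotypes, by 2.08-fold (Tgfb1 in KO) to 7.85-fold (Inhba in KO). The windows just upstream of their transcription starts are shown first, because these 5 genes carry the infarction response of the set. Each line gives the 250 bases before the start of the gene, 5′ to 3′ on the gene's own strand, from RefSeq on GRCm38.p6. Tgfb1 is at chr7:25686752-25687001 on the plus strand, Tgfb2 at chr1:186705990-186706239 on the minus strand, Inhba at chr13:16011601-16011850 on the plus strand, Inhbb at chr1:119422249-119422498 on the minus strand and Fstl3 at chr10:79777024-79777273 on the plus strand. Capitals mark matches on either strand to the motifs named after the sequences.
Tgfb1: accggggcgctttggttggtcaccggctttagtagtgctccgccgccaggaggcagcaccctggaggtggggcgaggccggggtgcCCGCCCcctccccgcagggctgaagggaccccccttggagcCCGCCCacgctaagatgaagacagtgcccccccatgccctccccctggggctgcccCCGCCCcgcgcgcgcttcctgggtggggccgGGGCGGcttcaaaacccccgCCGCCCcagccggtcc
Tgfb2: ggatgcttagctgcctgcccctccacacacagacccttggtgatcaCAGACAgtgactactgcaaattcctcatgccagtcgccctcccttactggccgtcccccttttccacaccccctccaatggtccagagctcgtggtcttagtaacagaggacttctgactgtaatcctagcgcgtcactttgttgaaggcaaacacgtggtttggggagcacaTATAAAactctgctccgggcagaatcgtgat
Inhba: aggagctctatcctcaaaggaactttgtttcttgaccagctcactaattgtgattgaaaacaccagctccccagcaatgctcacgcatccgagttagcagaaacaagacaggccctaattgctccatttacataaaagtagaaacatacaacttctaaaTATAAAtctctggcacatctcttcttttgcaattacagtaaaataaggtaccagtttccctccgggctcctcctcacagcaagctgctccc
Inhbb: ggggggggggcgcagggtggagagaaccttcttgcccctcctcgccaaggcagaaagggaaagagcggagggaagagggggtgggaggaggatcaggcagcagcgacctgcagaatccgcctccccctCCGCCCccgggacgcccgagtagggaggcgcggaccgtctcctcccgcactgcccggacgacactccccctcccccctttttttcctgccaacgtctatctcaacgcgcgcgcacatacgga
Fstl3: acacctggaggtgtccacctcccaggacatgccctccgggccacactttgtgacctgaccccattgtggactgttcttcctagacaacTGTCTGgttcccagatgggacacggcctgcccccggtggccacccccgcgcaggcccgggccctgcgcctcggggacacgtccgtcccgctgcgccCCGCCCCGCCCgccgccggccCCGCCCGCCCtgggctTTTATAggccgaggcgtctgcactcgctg

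The motifs searched on both strands were TATAAA (the TATA box), GGGCGG (the GC box), CAGACA (a Smad box), GTCTAGAC (the Smad palindrome), TGANTCA (the AP-1 site) and TGATGCAA (the core of the amino acid response element). Among 32851 mouse promoter windows of the same length, TATAAA was present in 12.4%, GGGCGG in 32.7%, CAGACA in 17.1%, GTCTAGAC in 0.167%, TGANTCA in 6.75% and TGATGCAA in 0.791%. The TATA letters began 31 bases before the start of Tgfb2, 91 bases before that of Inhba and, on the opposite strand as TTTATA, 29 bases before that of Fstl3. The Tgfb1 window held 5 GC boxes and no TATA letters, with a GC content of 75.2% against a median of 52.4% over all windows. Fstl3 combined 4 GC boxes, which overlap in pairs, with TATA letters and 1 CAGACA match on the opposite strand, at a GC content of 71.2%. Tgfb2 held CAGACA 204 bases before its start, and Inhbb a single GC box. Inhba, with the largest rise of the set, had the lowest GC content of the 5 windows, at 43.2%, and none of the GC box or Smad letters. GTCTAGAC, TGANTCA and TGATGCAA were not among the letters of these 5 windows, which says nothing about binding of a factor. Windows were listed for 9 of the 10 genes, Tgfb3 being the exception.

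After MI in WT hearts, 6 of the 9 measured genes rose (Tgfb1, Tgfb2, Inhba, Inhbb, Fstl3 and Tgfbr1) and 0 fell, where 12.3% of all genes rose and 15.8% fell. Their median log2 fold change was 1.14, against 0.04 over all genes. In KO hearts 7 of 9 rose, the same 6 and Ltbp2, and 0 fell, where 10.5% of all genes rose and 10.3% fell, with a median of 1.06 against 0.01. Rises of at least 2-fold numbered 5 in WT and 5 in KO, where 3.88% and 3.39% of all genes rose as much. The lowest MI array lay above the highest sham array for 8 of 9 genes in each genotype, a pattern that 35% of all genes had in WT and 28.1% in KO. The exception was Tgfb3, whose WT arrays lay in the opposite order, as they did for 31.6% of all genes, and whose KO arrays overlapped. Because these are bulk heart samples, a lower share of cells of a type and less RNA per cell cannot be told apart, and the same holds for rises.

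**Figure D1:**
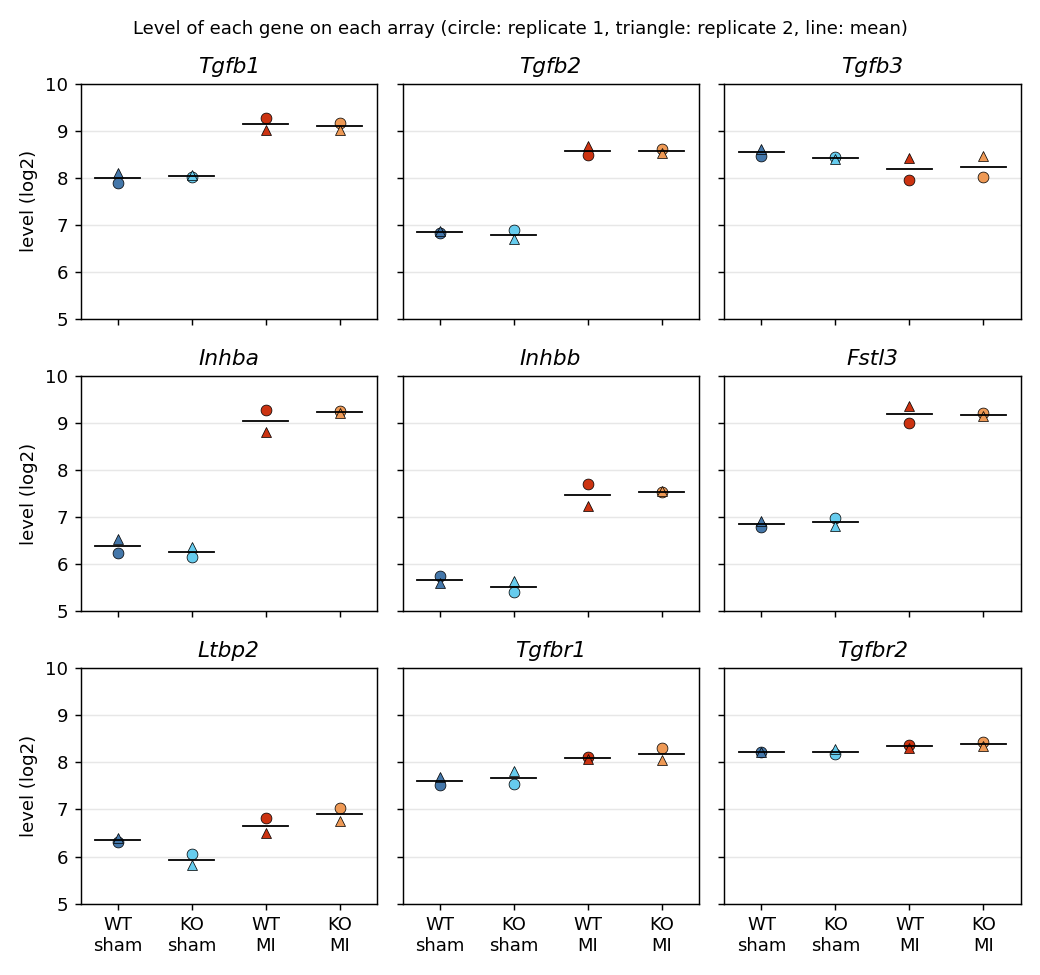
Log2 level (y axis) of each of the 9 measured genes on each of the 8 arrays by group (x axis), with circles for replicate 1, triangles for replicate 2 and a line at the mean. The MI arrays of Inhba lie between 8.80 and 9.28, above all its sham arrays (6.15 to 6.53), while those of Tgfbr2 lie close to sham. For Tgfb3, replicate 1 of each MI group (7.96 in WT and 8.01 in KO) lies below all sham arrays.

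Inhba, which encodes the beta A chain of activin A, had the largest rise of the set. It read 6.23 and 6.53 in WT sham, 6.15 and 6.36 in KO sham, 9.28 and 8.80 in WT MI and 9.25 and 9.20 in KO MI. All MI arrays were high and all sham arrays low, and the genotypes overlapped within each condition. The rise was 6.32-fold in WT (limma, log2 fold change 2.66, SE 0.18, adjusted p = 8.70e-06) and 7.85-fold in KO (2.97, SE 0.18, adjusted p = 7.99e-06). From the highest rise downwards, Inhba ranked 109th of 19938 genes in WT and 60th in KO. Leaving out both arrays that stood apart gave 2.90 in WT and 2.86 in KO.

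Inhbb encodes the beta B chain of activin B. Its levels were 5.74 and 5.60 in WT sham, 5.40 and 5.63 in KO sham, 7.70 and 7.24 in WT MI and 7.53 and 7.56 in KO MI. As with Inhba, the MI arrays stood above every sham array, the WT MI pair was the more spread of the MI pairs, and the KO MI arrays fell between its values. Infarction raised Inhbb 3.48-fold in WT (log2 fold change 1.80, SE 0.17, adjusted p = 5.56e-05, rank 272) and 4.07-fold in KO (2.02, SE 0.17, adjusted p = 4.70e-05, rank 152). The changes were 2.03 and 1.91 without the arrays that stood apart. By contrast, Inha, the alpha chain that turns a beta chain into inhibin, had a log2 fold change of -0.17 in WT (adjusted p = 0.462) and -0.63 in KO (adjusted p = 0.0161). The KO call of Inha was lost without KO sham replicate 1 (0.0644), KO MI replicate 1 (0.0779) or KO MI replicate 2 (0.0938).

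Tgfb2 encodes the TGF-beta isoform best known from heart development. It read 6.82 and 6.86 in WT sham, 6.89 and 6.69 in KO sham, 8.49 and 8.67 in WT MI and 8.62 and 8.53 in KO MI. The arrays of each group lay close together and the conditions far apart. The rise was 3.34-fold in WT (log2 fold change 1.74, SE 0.13, adjusted p = 1.74e-05, rank 301) and 3.45-fold in KO (1.79, SE 0.13, adjusted p = 2.16e-05, rank 213). It was 1.65 and 1.88 without the arrays that stood apart.

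Tgfb1 encodes the isoform that platelets, macrophages and other leukocytes release at wounds. Its levels were 7.89 and 8.10 in WT sham, 8.02 and 8.05 in KO sham, 9.27 and 9.01 in WT MI and 9.16 and 9.02 in KO MI. In each condition the KO arrays fell between the WT arrays. Infarction raised Tgfb1 2.21-fold in WT (log2 fold change 1.14, SE 0.14, adjusted p = 0.000281, rank 622) and 2.08-fold in KO (1.06, SE 0.14, adjusted p = 0.000724, rank 612). Leaving out the arrays that stood apart gave 1.27 in WT and 1.04 in KO.

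Tgfb3, the third isoform, was the only measured gene of the set whose mean was lower after MI in both genotypes, and neither difference passed the threshold. It read 8.47 and 8.62 in WT sham, 8.44 and 8.39 in KO sham, 7.96 and 8.42 in WT MI and 8.01 and 8.46 in KO MI. In each MI group replicate 1 was low and replicate 2 lay near the sham level, so the KO conditions overlapped. The log2 fold change was -0.35 (SE 0.19, 95% interval -0.78 to 0.07, adjusted p = 0.200) in WT and -0.18 (SE 0.19, 95% interval -0.60 to 0.25, adjusted p = 0.596) in KO. Without KO MI replicate 1 the KO value changed sign, to 0.05 (adjusted p = 0.922, range over alternatives 0.293 to 0.922). For Tgfb1 and Tgfb2 the intervals lay wholly above 0 in both genotypes.

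**Figure D2:**
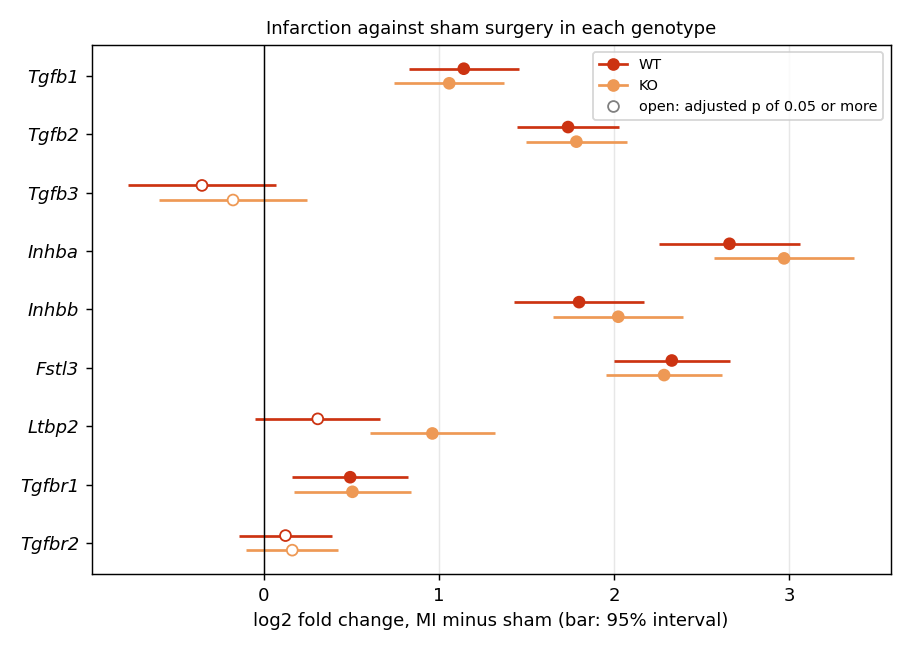
Log2 fold change of MI against sham (x axis) with its 95% interval for each of the 9 genes (y axis) in WT (red) and KO (orange); filled points passed an adjusted p under 0.05. Inhba and Fstl3 lie farthest to the right, and Ltbp2 is filled in KO (0.96) and open in WT (0.31).

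Fstl3, the secreted follistatin-like protein that binds activins and myostatin, rose beside the activin chains. Its levels were 6.79 and 6.92 in WT sham, 6.98 and 6.81 in KO sham, 9.004 and 9.362 in WT MI and 9.22 and 9.14 in KO MI. The MI and sham arrays were well separated, and the genotypes overlapped in both conditions. The rise was 5.03-fold in WT (log2 fold change 2.33, SE 0.15, adjusted p = 6.32e-06, rank 157) and 4.88-fold in KO (2.29, SE 0.15, adjusted p = 1.16e-05, rank 122). Without the arrays that stood apart it was 2.15 and 2.37. Fst, which encodes follistatin itself, had smaller log2 fold changes that did not pass, 0.42 in WT (adjusted p = 0.0653) and 0.27 in KO (adjusted p = 0.274).

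Ltbp2 encodes a matrix protein of the latent TGF-beta binding protein family that, unlike its relatives, does not bind latent TGF-beta. It read 6.31 and 6.39 in WT sham, 6.05 and 5.82 in KO sham, 6.83 and 6.49 in WT MI and 7.04 and 6.75 in KO MI. KO sham was the lowest group, with both arrays under both WT sham arrays, while the MI groups overlapped. The mean level of 6 smooth muscle and pericyte markers was lower in KO sham (8.76 and 8.95) than in WT sham (9.15 and 9.54). In KO against WT, 0 of 6 passed, 5 were below 0 and 1 above, with a median of -0.15 (-1.67 to 0.11). Myh11, which is among these markers, was at -1.05 (limma adjusted p = 0.302). Acta2 and Tagln, which are not among them, were at -1.65 and -1.02 (limma adjusted p = 0.302 and 0.570). In the same sham comparison the medians of all other cell type marker lists were below 0 too. For the liver (-1.12) and atrial (-1.27) lists 4 of 4 markers were below 0. The part of any of these markers and genes in the Ltbp2 difference was not tested. The group means ran from 5.93 ± 0.16 (SD, n = 2) in KO sham through 6.35 ± 0.06 in WT sham and 6.66 ± 0.24 in WT MI to 6.89 ± 0.20 in KO MI, and no neighbouring pair in that order differed beyond the threshold. Infarction raised Ltbp2 1.95-fold in KO (log2 fold change 0.96, SE 0.16, adjusted p = 0.00249, range over alternatives 0.00170 to 0.0304). In WT the value was 1.24-fold (0.31, SE 0.16, 95% interval -0.05 to 0.67, adjusted p = 0.190, range 0.0645 to 0.610). Without the arrays that stood apart the changes were 1.07 in KO and 0.47 in WT.

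The receptor transcripts had small fold changes. Tgfbr1, the type I receptor kinase, read 7.51 and 7.69 in WT sham, 7.53 and 7.82 in KO sham, 8.12 and 8.07 in WT MI and 8.31 and 8.05 in KO MI. Every MI array lay above every sham array. The rise was 1.41-fold in WT (log2 fold change 0.49, SE 0.15, adjusted p = 0.0332) and 1.42-fold in KO (0.51, SE 0.15, adjusted p = 0.0381), at ranks 2239 and 1955. These calls were fragile. Leaving out 1 array ended the WT call for both sham arrays of that genotype (adjusted p = 0.203 without replicate 1 and 0.0755 without replicate 2) and for both its MI arrays (0.107 and 0.0967). It ended the KO call for KO MI replicate 1 (adjusted p = 0.240), KO sham replicate 1 (0.157), either WT sham array (0.0598), KO MI replicate 2 (0.0580) and either WT MI array (0.0509). Without both arrays that stood apart the adjusted p was 0.0543 in WT and 0.152 in KO, and with each array centred on its median it was 0.179 and 0.0713.

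Tgfbr2, the type II receptor that binds the ligand first, was nearly level. It read 8.21 and 8.22 in WT sham, 8.17 and 8.29 in KO sham, 8.37 and 8.31 in WT MI and 8.43 and 8.35 in KO MI. The MI arrays were all slightly above the sham arrays. The log2 fold change was 0.12 in WT (SE 0.12, 95% interval -0.14 to 0.39, adjusted p = 0.484) and 0.16 in KO (SE 0.12, 95% interval -0.10 to 0.43, adjusted p = 0.407), and neither passed.

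The question of the knockout design was whether these genes differed between genotypes, and 0 of the 9 passed limma's test in any genotype comparison. At an unadjusted p under 0.05 there was 1 gene of the 9 in sham and 0 after MI, where 5.10% and 11.7% of all genes were under it. In sham hearts, KO against WT, 0.0301% of all genes passed (6 genes) and the 9 differences ran from -0.42 to 0.07, with 95% intervals from -0.78 to 0.41 and a lowest adjusted p of 0.887. In MI hearts 0.0702% of all genes passed (14 genes), the differences ran from -0.05 to 0.24, the intervals from -0.37 to 0.60, and the lowest adjusted p was 0.618. A p over the threshold does not show that the genotypes are alike. The widest bounds after MI were 0.773-fold (Tgfb3, KO over WT) and 1.51-fold (Ltbp2). The arrays of the genotypes overlapped for all 9 genes after MI, where 24.2% of all genes were higher and 20.2% lower in KO without overlap. Tgfb3 and Ltbp2 were lower on both KO sham arrays than on both WT sham arrays, a pattern of 16.1% of all genes.

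The test of the difference between the MI responses (KO minus WT) passed for 0 of 9 genes and for 0% of all genes, while 1637 of 19938 genes had an unadjusted p under 0.05. The differences ran from -0.08 (Tgfb1) to 0.65 (Ltbp2), with 95% intervals from -0.53 to 1.16. For the KO effect averaged over both conditions 0 of 9 passed, where 0.0552% of all genes did, with differences from -0.09 to 0.08. The activin chains had small response differences, 0.31 for Inhba (95% interval -0.25 to 0.88) and 0.22 for Inhbb (95% interval -0.30 to 0.75). Ltbp2 was the 1 gene of the set with an unadjusted limma p under the threshold. It had a difference of -0.42 in sham (SE 0.16, adjusted p = 0.887) and of 0.65 between the responses (SE 0.23, adjusted p = 0.538). Neither passed after adjustment over all genes, and the adjusted p of the response difference ran from 0.285 to 0.973 over the alternatives. After MI its difference was 0.24 (SE 0.16, adjusted p = 0.618). Without the arrays that stood apart the Ltbp2 differences were -0.53 in sham, 0.07 after MI and 0.60 for the response.

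**Figure D3:**
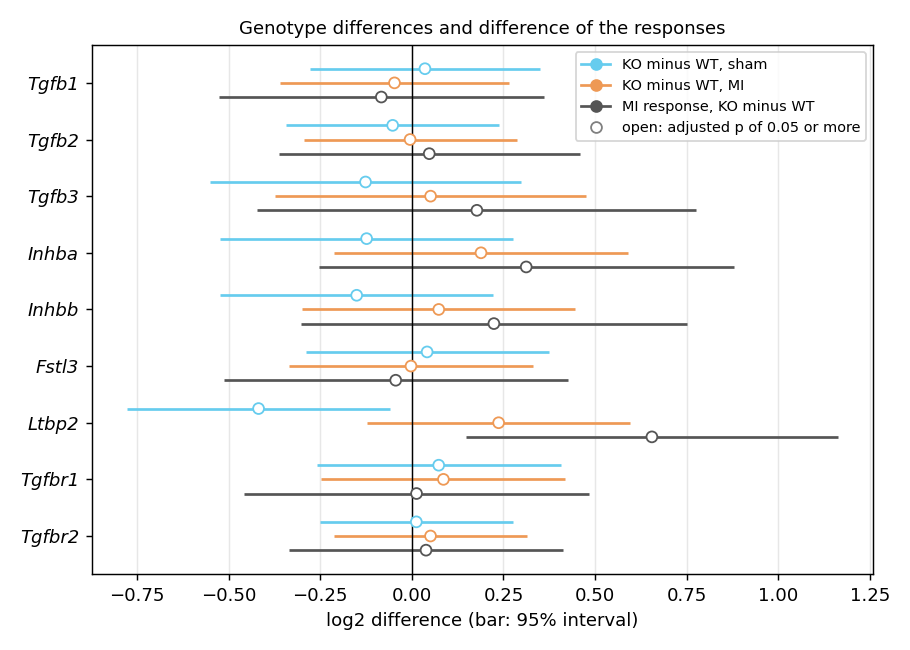
Log2 differences (x axis) with 95% intervals for the 9 genes (y axis), for KO minus WT in sham (light blue), KO minus WT in MI (orange) and the MI response in KO minus that in WT (grey); all points are open, since no adjusted p was under 0.05. Only the sham and response bars of Ltbp2 miss 0.

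Around these genes, 7 lists with 93 measured genes described the rest of the pathway, its response genes and the integrated stress response, at the same threshold. Of 14 genes for latent storage and activation of TGF-beta, 1 rose and 5 fell in WT, and 2 rose and 5 fell in KO. Over all genes, 12.3% rose and 15.8% fell in WT, and 10.5% rose and 10.3% fell in KO. The medians of the list were -0.13 and -0.06 against 0.04 and 0.01 over all genes. Thbs1, which encodes thrombospondin 1, an activator of latent TGF-beta, rose by 3.15 in WT and by 3.03 in KO (adjusted p = 7.40e-06 and 1.50e-05). The integrin subunit Itgb6, whose heterodimer activates latent TGF-beta, fell by 3.60 in WT and by 2.19 in KO (adjusted p = 2.22e-05 and 0.000642). The proprotein convertase Pcsk6 fell by 2.77 and by 1.64 (adjusted p = 2.85e-06 and 0.0001). The latent binding proteins Ltbp1 and Ltbp4 fell as well, by 1.15 and 1.23 in WT and by 0.81 and 1.03 in KO. Ltbp3 passed with smaller falls. They no longer passed in WT without either sham array (adjusted p = 0.0531 for replicate 1 and 0.0685 for replicate 2) or without WT MI replicate 2 (0.0568), and in KO without KO MI replicate 2 (0.137), KO MI replicate 1 (0.0650) or KO sham replicate 2 (0.0601). Lrrc32, a membrane docking protein for latent TGF-beta, was the other rise in KO, with a call that needed KO MI replicate 1 (adjusted p = 0.0591 without it).

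Among 18 other ligands, 2 rose and 3 fell in WT and 1 rose and 4 fell in KO, with medians of 0.05 in both. The shares over all genes were 12.3% up and 15.8% down in WT, and 10.5% up and 10.3% down in KO. Gdf6, a bone morphogenetic protein relative, kept its call in WT without each array (0.66, adjusted p = 0.00326). Bmp2, up in both genotypes, and Bmp5, Bmp6 and Bmp7, down in both, lost their WT calls without WT sham replicate 1 (adjusted p between 0.0534 and 0.232), and each also lost its KO call without KO MI replicate 1 or KO MI replicate 2 (0.0746 to 0.109). Over the alternatives the list held 0 to 3 falls in WT and 1 to 4 in KO. Of 12 other receptors and coreceptors 0 rose in either genotype, and 3 fell in WT (Acvr1, Tgfbr3 and Bmpr2) and 1 in KO (Bmpr2). Those WT calls were all lost without WT sham replicate 1 (adjusted p = 0.0968, 0.0828 and 0.217), and Bmpr2 in KO without KO MI replicate 1 (0.124). Acvr2a, a type II activin receptor, did not pass (-0.65 in WT, adjusted p = 0.0517).

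Inside the cell, 2 of 16 Smads and regulators rose and 3 fell in WT, and 3 rose and 1 fell in KO. For comparison, 12.3% of all genes rose and 15.8% fell in WT, and 10.5% rose and 10.3% fell in KO. Tgif1, a corepressor of Smads, rose by 1.53 in WT and by 1.09 in KO (adjusted p = 3.17e-05 and 0.000359). Smad1, a signal carrier of bone morphogenetic proteins, rose by 0.78 and by 0.65 (adjusted p = 0.00118 and 0.00504). The WT falls of Zfyve9, Smad6 and Bambi were lost without WT sham replicate 2 (adjusted p = 0.0658, 0.0845 and 0.0812), and the KO calls of Smad3 (up) and Smad6 (down) without KO MI replicate 1 (0.135 and 0.149). Of 9 extracellular antagonists, 2 rose and 2 fell in WT and 1 rose in KO. The proteoglycan Dcn fell by 0.61 in WT (adjusted p = 0.00498), and the WT calls of Nog, Bgn and Fstl1 were lost without WT sham replicate 1 (0.160, 0.123 and 0.243), while Fstl1 in KO kept its rise (0.87, adjusted p = 0.00396).

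Of 15 genes known to respond to TGF-beta, 6 rose and 2 fell in WT and 7 rose and 0 fell in KO. Their medians were 0.29 and 0.43. Among all genes the share up was 12.3% in WT and 10.5% in KO, and the share down 15.8% and 10.3%. Fn1, which encodes fibronectin, rose by 2.23 in both, Tgfbi by 2.21 in WT and 2.34 in KO, Ccn2 by 2.12 and 2.61, Ccn1 by 1.61 and 1.42, and Junb by 1.28 and 0.93. Acta2, which encodes smooth muscle actin, did not pass, with -0.55 in WT and 0.24 in KO (adjusted p = 0.25 and 0.69). Tagln and Id3, the falls in WT, lost their calls without WT sham replicate 2 (adjusted p = 0.263 and 0.0716), and Col3a1 and Id2, up in KO, without KO MI replicate 1 (0.0837 and 0.0886). Of 9 genes of the integrated stress response, the stress programme known to raise Gdf15, 7 rose in WT and 7 in KO, among them Asns (2.02 and 1.72), Atf4 (1.58 and 1.16) and Atf3 (2.45 and 1.82). The medians of the stress response list were 1.36 in WT and 0.70 in KO, and 8 of its 9 response differences (KO minus WT) were below 0. None of these differences passed. The KO calls of Sesn2 (0.63) and Trib3 (0.70) were lost without KO MI replicate 1. Across the 7 lists, 0 of 93 genes passed in any comparison of the genotypes or in the difference of the responses. At an unadjusted limma p under 0.05 there were 9 in sham (9.68%, against 5.10% of all genes), 18 after MI (19.4% against 11.7%), 11 for the difference (11.8% against 8.21%) and 13 for the averaged effect (14.0% against 7.27%). Over the alternatives, 1 gene of the latent storage and activation list passed after MI with an intensity trend and without WT MI replicate 1. Of the TGF-beta response genes, 1 passed after MI with an intensity trend and 1 for the averaged effect without WT MI replicate 1.

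**Figure D4:**
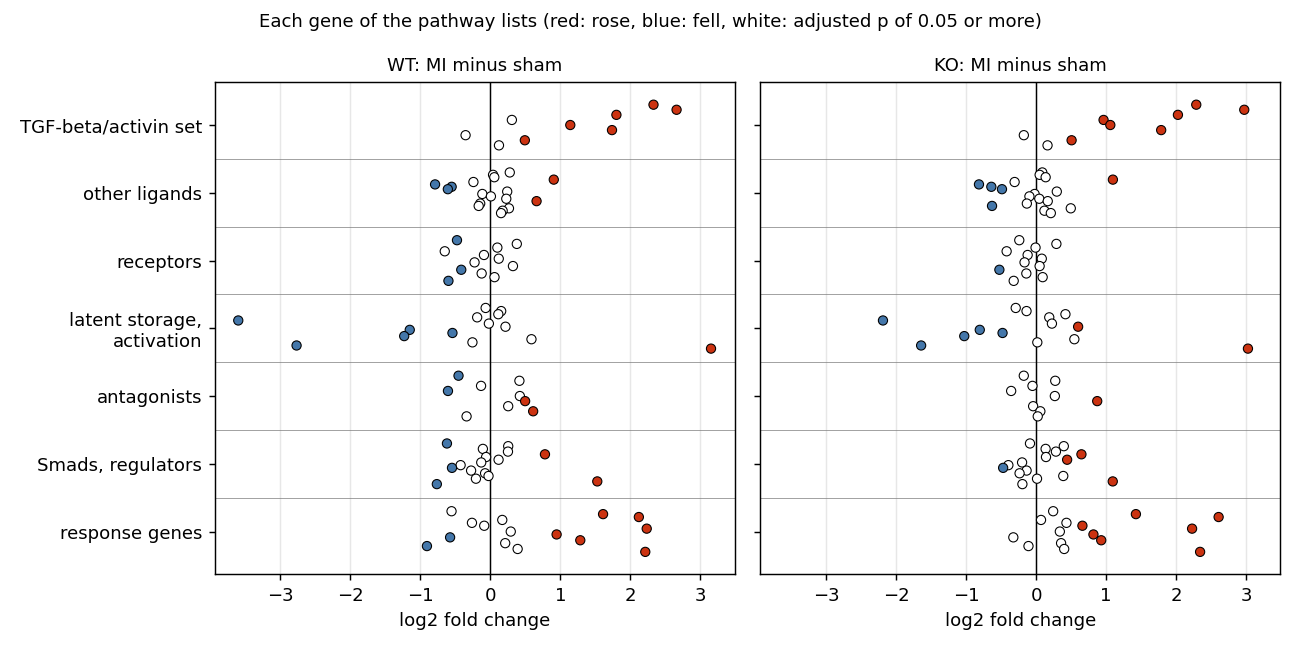
Log2 fold change of MI against sham (x axis) of each gene, in WT (left) and KO (right), for the 9 measured genes of the set and 6 of the pathway lists (y axis), with red for rises, blue for falls and white for an adjusted p of 0.05 or more. The set lies mostly to the right of 0, while the latent storage and activation genes spread from -3.60 to 3.15 in WT.

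Markers of cell types changed after MI too, some upwards like the set and others downwards. Over all genes 12.3% rose and 15.8% fell in WT, and 10.5% rose and 10.3% fell in KO. The mean level of 6 neutrophil markers ran from 3.77 to 4.09 over the sham arrays, from 8.22 to 9.15 in WT MI and from 7.24 to 7.75 in KO MI, and 6 of 6 rose in WT and 5 of 6 in KO. That of 6 monocyte and macrophage markers ran from 6.15 to 6.57 in sham, from 8.22 to 8.77 in WT MI and from 8.32 to 8.36 in KO MI, with 4 of 6 raised in each genotype. Of 5 platelet markers 3 rose in WT and 2 in KO. Of 4 liver markers, whose array means varied from 4.90 to 7.86 within sham and read 4.33 to 4.64 after MI, 4 fell in WT and 1 in KO. Of 6 fibroblast markers 4 fell in WT (median -0.69) and 1 in KO (median -0.11, with 1 of 6 above 0). Their array means were 8.54 to 8.86 in sham, 8.03 to 8.12 in WT MI and 8.40 to 8.47 in KO MI. Smooth muscle and pericyte markers fell for 6 of 6 in WT and 3 of 6 in KO. Of 7 cardiomyocyte markers 3 fell in WT and 1 in KO, and of 6 endothelial markers 1 fell in WT and 2 in KO. The mean level of 4 atrial markers varied from 7.09 to 8.65 in WT sham and from 5.85 to 7.32 in KO sham, and read 6.74 to 6.90 after MI. All 4 were below 0 in KO against WT in sham (median -1.27), and 1 of them passed, Nppa, which encodes atrial natriuretic peptide (-2.31, adjusted p = 0.0154). After MI Nppa rose in both genotypes, by 1.64 in WT and by 4.09 in KO (limma adjusted p = 8.51e-06 in KO). In KO against WT after MI it was at 0.14, and the difference of its responses, 2.45, did not pass. The part of the atrial markers in the sham differences of the set was not tested. Nor was that of all these markers in the rises of Tgfb1, Tgfb2, Inhba, Inhbb and Fstl3.

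The genes most like each member over the 8 arrays are given as a description, and all 8 arrays share the step between sham and MI. Likeness was Pearson's r of log2 levels among 18541 named genes outside the set, so members were not compared with each other. Inhba was closest to Fn1 (r = 0.998), Inhbb to Itgb2 (0.997), Tgfb1 to Alyref (0.998), and both Tgfb2 and Fstl3 to Clic4 (0.999 and 0.998). Tgfb3 was closest to Dapk2 (0.971), Ltbp2 to Lrrc32 (0.973), Tgfbr1 to Pdcd2l (0.995) and Tgfbr2 to Ppm1g (0.987). Genes with r above 0.95 numbered 827 to 892 for the 5 strong risers, 173 for Tgfbr1, 90 for Tgfbr2, 10 for Ltbp2 and 4 for Tgfb3. The profiles of Ltbp2 and Tgfb3 had few close matches and those of the strong risers many.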

How the data were processed

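Per the labels, the 8 samples were biotin-labelled total RNA of mouse hearts on the Affymetrix Mouse Gene ST platform. The authors deposited log2 expression values, made with Affymetrix Expression Console and RMA per the submitters' processing notes, with versions not given in the sources used here. RMA as commonly run makes array distributions alike, which would reduce a shift shared by most genes. Of 35556 probes, 21789 had 1 gene symbol in the platform annotation, 1621 had several and 12146 were unnamed; 21698 were matched by Entrez ID to RefSeq (GRCm38.p6), and 0 symbols changed. For 999 genes with more than 1 probe the one with the highest mean was used, which left 19938 genes, with no filter on low values. Array medians ran from 5.004 to 5.253.

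Tests used limma 3.58.1 (R 4.3.3), with 4 group means fitted to all 8 arrays (4 residual and 5.57 prior degrees of freedom), two-sided, with Benjamini-Hochberg adjustment over all genes and a threshold of 0.05. The averaged KO effect used condition as an additive term. An exact permutation test of 2 against 2 arrays cannot give a p under 0.333. The members and lists were chosen with earlier results of these data known, so list counts are no independent support. Named were all members, Fbxo32, up to 5 genes with the smallest p among those that passed in each pathway list and the closest gene outside the set to each member. Inha in WT, Fst, Acvr2a, Acta2, Myh11, Nppa and, in sham, Tagln were named after their values were seen. Where more than 5 genes of a list passed, further ones whose calls were lost in an alternative were named with a setting that ended them. Alternatives were leaving out each array or both arrays that stood apart, a replicate block, median centring, cyclic loess, fits of only the groups compared, testing every probe, averaging the probes of a gene, dropping the lowest 33.3% of genes, array weights, and a robust or intensity-dependent prior; list counts under these were added after seeing the data. The code was tested on simulated data. Plots used matplotlib 3.10.9 (Python 3.11.15).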

Additional observations from a re-analysis of the deposited data

How the results depend on the processing

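Over 19 alternatives the MI rises of Tgfb1, Tgfb2, Inhba, Inhbb and Fstl3 in both genotypes and of Ltbp2 in KO kept their direction and passed in each, and the calls of Tgfbr1 did not (12 of 19 in WT, 6 of 19 in KO). Leaving out 1 array at a time, 5 to 6 of the 9 genes passed in WT MI and 6 to 7 in KO MI, and 0 in each genotype comparison. Tgfb3 in KO then ran from -0.40 to 0.050, with the change of sign without KO MI replicate 1, and the cause was not tested. Over all genes, leaving out 1 array gave 3457 to 6483 calls in WT MI, 2246 to 4099 in KO MI, 3 to 34 for KO against WT in sham, 2 to 11 for KO against WT in MI, 0 to 3 for the difference of the responses and 2 to 9 for the averaged KO effect (11 with all arrays). For KO against WT in sham, the calls over all genes were 12 with an intensity trend, 1 with all probes, 3 with the compared groups alone and 13 with median centring. For KO against WT in MI they were 63 with an intensity trend, 26 with array weights, 23 without the lowest 33.3% of genes, 0 with all probes, 2 with the compared groups alone, 5 with the replicate block and 3 without both arrays that stood apart. The difference of the responses gave 4 with an intensity trend and 1 with cyclic loess, and the averaged effect 1 with all probes, 3 with median centring, 3 with the replicate block and 4 without the arrays that stood apart. The causes were not tested. Deviations from group means correlated between arrays of the same replicate number at -0.19 to 0.16, and the labels do not say whether a number marks a shared batch. With the replicate block 5248 genes passed in WT MI and 3811 in KO MI, 6 members passed in each, and Tgfbr1 in KO did not (adjusted p = 0.0569). With 2 arrays per group, small differences such as those of Tgfb3, Tgfbr1, Tgfbr2 and Ltbp2 in WT are the least settled.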
